A study of Homo sapiens with 24 samples.

Results

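In the human glioblastoma line LN-229, the change of each gene in the combined knockdown of ZFX and ZNF593 was compared with the change that the separate knockdowns add up to. For every gene, the log2 effect of siZFX siZNF593 over siControl_2 was taken, and the log2 effects of siZFX over siControl and of siZNF593 over siControl were subtracted from it. The remainder is called the departure here. A departure of 0 means that the fold changes of the separate knockdowns multiply in the double knockdown, a positive one that the gene lay above that level, and a negative one that it lay below. The contrast used 15 of the 24 libraries of the series. Of 17684 genes tested, 680 lay above the sum (3.85%) and 320 below it (1.81%), 1000 in all (5.65%), at an adjusted p under 0.05 in edgeR's quasi-likelihood test.

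ZFX is a zinc finger transcription factor encoded on the X chromosome that binds near the start sites of many active genes and mostly activates them, and it is known for its part in the growth of stem and tumour cells. ZNF593 is a small zinc finger protein, and its yeast counterpart Bud20 works in the export of the large ribosomal subunit from the nucleus. A small interfering RNA (siRNA) lowers the mRNA of its target by guiding its cleavage, so the transcripts measured here include direct and indirect responses. On a log scale, genes that 2 perturbations change independently have effects that add.

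All 15 libraries were total RNA of LN-229 cells of wild type genotype. The 5 groups of 3 were siZFX siZNF593, in which both genes were targeted, siZFX, siZNF593, siControl_2 and siControl. The labels call the treatment of both control sets by 1 name. siControl_2 is linked to the double knockdown by its file naming alone, so the sets may differ in siRNA amount, day or another condition that was not given. The 3 libraries of a group are described as biological replicates, but separate cultures are not stated, and p-values therefore measure the spread between these libraries, which may be technical. siRNA leaves part of the target in place, and LN-229 is 1 line.

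Counts on genes ran between 16774179 and 30159260 a library, and 77.6% to 80.5% of all reads were counted on a gene. The third double-knockdown library stood apart from the other two: its first principal component score was 78.5 against 33.0 and 34.2, and its counts differed from theirs by a chi-square of 48.2 and 41.8 per degree of freedom, against 3.37 to 10.3 in all other pairs within a group. Counts of list members that moved by more than 1.5 times without it are given both ways. Of the markers fixed for the labelled cell type, 6 of 6 glioblastoma genes were above 1 CPM (reads per 1000000 scaled counts). Their summed levels were 3503 to 3587 CPM in the double knockdown, 3988 to 4096 CPM with siZFX and 3111 to 3131 CPM with siZNF593. In siControl_2 they were 4687 to 4838 CPM, and in siControl 4872 to 4934 CPM. Of the 4 microglia and macrophage markers none passed 1 CPM in any library. The neuron list had 3 of 3 genes above 1 CPM, the fibroblast list 4 of 4, the epithelial list 2 of 4, the endothelial list 2 of 3 and the astrocyte list 1 of 3.

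The targeted genes were lowered in every library that carried the siRNA. ZFX (chrX:24149173-24216255, GRCh38) had 24.1, 28.6 and 27.2 CPM in the double knockdown, 12.7, 15.7 and 19.7 in siZFX, 49.1, 58.5 and 56.3 in siZNF593, 48.8, 56.1 and 55.8 in siControl_2, and 55.2, 50.8 and 45.7 in siControl. The double-knockdown libraries thus all lay above the siZFX libraries and below all controls. ZFX remained at 49.8% of siControl_2 in the double knockdown and at 31.7% of siControl with siZFX alone, and its effect in the double knockdown was weaker by 0.65 on the log2 scale (SE 0.17, adjusted p = 0.0112). The departure of ZFX itself was 0.54 (SE 0.24, adjusted p = 0.233), with a 95% interval of 0.04 to 1.04.

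ZNF593 had no unstranded count in any of the 15 libraries, because all of its exonic bases lie within the overlapping gene AL391650.1, and its level was therefore read from the counts on each strand added together. ZNF593 (chr1:26169871-26170873) had 2.45, 3.18 and 2.56 CPM in the double knockdown, 34.2, 35.1 and 28.96 CPM with siZFX, 2.41, 1.34 and 2.09 CPM with siZNF593, 34.4, 29.7 and 28.6 CPM in siControl_2, and 30.0, 32.1 and 27.2 CPM in siControl. It remained at 8.83% of siControl_2 in the double knockdown and at 6.54% of siControl with siZNF593 alone. The extent to which the smaller fall of ZFX in the double knockdown enters the departures below was not tested.

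The departures ran mostly against the direction of the sum. Among the 680 genes above the sum, both single knockdowns lowered the gene in 522 and the summed effect was negative in 661, and the median gene had a summed effect of -0.99 and a double-knockdown effect of -0.12 (log2). Among the 320 below it, both single effects were positive in 227, with a median sum of 0.89 and a median double-knockdown effect of -0.10. In 415 of the genes above (61%) and 139 of the genes below (43.4%), the double knockdown lay between 0 and the sum. In 246 (36.2%) and 157 (49.1%) of them it lay on the other side of 0 from the sum. A double effect in the direction of the sum but larger than it was found for 19 of the genes above (2.79%) and 24 of those below (7.5%). These counts describe how the groups lie to each other. The whole sum is subtracted in the departure, so the siZFX, siZNF593 and siControl libraries enter both with opposite sign. Spread in these libraries alone favours negative sums among genes called above and positive sums among genes called below. The opposing direction is thus partly built into the choice of genes, and the counts are not independent of it. Over all genes tested, the double effect lay between 0 and the sum in 44.9%, on the other side of 0 in 27.9% and beyond the sum in 27.2%.

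**Figure D1:**
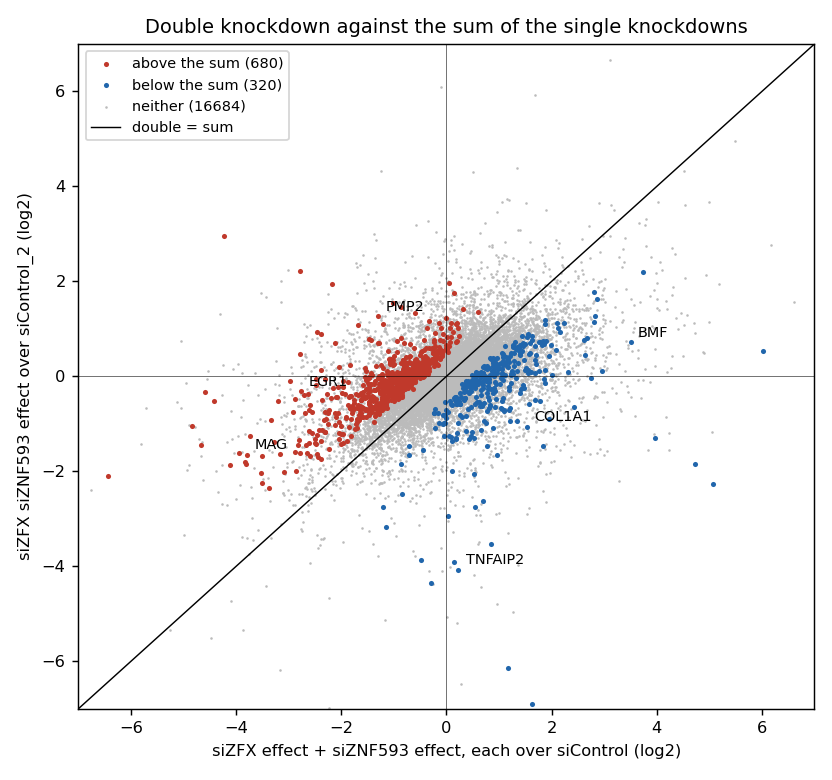
Each point is 1 of 17680 genes within the axes, with the sum of the siZFX and siZNF593 effects over siControl on the x axis and the siZFX siZNF593 effect over siControl_2 on the y axis (both log2). The 680 genes above the diagonal (red) lie mostly at negative sums, the 320 below it (blue) mostly at positive sums, and 4 genes, 1 of them called, lie outside the axes.

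The genes called were mostly well expressed and nearly all protein coding. A departure is harder to call at low counts, and how far this shapes the difference from all genes was not tested. The median level over the 5 groups was 72.1 CPM among the genes above, 39.9 CPM among those below and 15.2 CPM over all genes tested, and protein-coding genes made up 94.9%, 95.9% and 76.5%. The departures called spanned 0.38 to 7.19 above and -0.46 to -8.54 below. At the threshold, MRFAP1 lay just inside with 0.43 (adjusted p = 0.0496) and CORO2A just outside with 1.07 (adjusted p = 0.05001).

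The number of departures depended on the control libraries. With siControl as the control of the double knockdown too, 1607 genes lay above the sum and 1056 below (9.09% and 5.97% of those tested). With all 6 control libraries pooled the counts were 2122 and 1682, and with siControl_2 as the control of all 3 effects 2424 and 2029. The share of calls that lay above the sum was 68.0% in the contrast described and 60.3%, 55.8% and 54.4% under these alternatives. Of the 680 genes above, 463 were called above under all 4 choices, and of the 320 below, 152. siControl_2 and siControl themselves differed at 961 genes higher and 863 lower in siControl_2 (5.43% and 4.88%). Leaving out single libraries moved the counts too: without the third double-knockdown library 1334 genes lay above and 713 below, and these included 679 of the 680 and all 320. Without siControl replicate 1 there were 441 above and 165 below, without siControl replicate 2, 405 and 146, without siControl replicate 3, 501 and 156, and without siZFX replicate 1 or 2, 211 and 198 below.

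The strongest departures upward are given first. They are the 12 protein-coding genes of at least 5 CPM with the largest positive departure that were called in the same direction with siControl and had every double-knockdown library above the level given by the sum, a rule that 544 genes met. Since the rule asks for a call with siControl, their direction under that choice is part of how they were chosen. IGFBP3 (chr7:45912245-45921874), a secreted binder of insulin-like growth factors, had 14.5, 16.2 and 16.6 CPM in the double knockdown, 14.4, 17.4 and 17.04 in siZFX, 7.77, 8.64 and 6.86 in siZNF593, 61.5, 49.4 and 60.6 in siControl_2, and 45.99, 49.8 and 44.3 in siControl. Its double-knockdown libraries overlapped the siZFX libraries, lay above all siZNF593 libraries and below all controls. The sum predicted 3.32 CPM, against 15.8 ± 1.11 CPM observed (SD, 3 libraries), and the departure was 2.25 (SE 0.22, adjusted p = 1.1e-06). The double-knockdown effect lay above the siZNF593 effect by 0.73 (SE 0.16, adjusted p = 0.00292).

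A shared fall that did not add up was also seen for KCNK5, a potassium channel, and FREM1, an extracellular matrix protein of basement membranes. KCNK5 had 13.5, 13.6 and 9.41 CPM in the double knockdown, 4.07, 2.64 and 2.69 in siZFX, 3.36, 3.93 and 4.84 in siZNF593, 14.7, 18.3 and 14.7 in siControl_2, and 10.4, 8.46 and 8.45 in siControl, with a departure of 2.33 (SE 0.37, adjusted p = 0.000364). The double-knockdown libraries lay above every single-knockdown library, and 1 of the 3 lay within the siControl range. FREM1 had 20.7, 15.8 and 20.5 CPM in the double knockdown, 5.14, 5.74 and 6.42 in siZFX, 6.01, 9.102 and 7.84 in siZNF593, 64.5, 66.3 and 68.7 in siControl_2, and 26.5, 24.7 and 24.1 in siControl, and its departure was 2.03 (SE 0.25, adjusted p = 2.42e-05). Its double-knockdown libraries lay above both single knockdowns and below all controls, and its siControl_2 level was 1.41 log2 above its siControl level.

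Other genes near the top fell with siZFX alone but less or not at all in the double knockdown. B3GALT2, a galactosyltransferase, had 22.4, 25.1 and 30.4 CPM in the double knockdown, 3.05, 5.37 and 4.34 in siZFX, 24.9, 27.8 and 24.97 in siZNF593, 14.9, 16.2 and 16.9 in siControl_2, and 15.4, 17.1 and 17.1 in siControl. The siZFX libraries were the lowest of the 15 and did not overlap any other group, while the double-knockdown libraries lay above both control sets. Its log2 effects were 0.70 in the double knockdown, -1.96 with siZFX and 0.65 with siZNF593, which left a departure of 2.01 (SE 0.29, adjusted p = 9.91e-05). PMP2, a lipid-binding protein of myelin, likewise had its lowest libraries with siZFX, with effects of 1.27 in the double knockdown, -2.15 with siZFX and 0.85 with siZNF593 and a departure of 2.57 (SE 0.41, adjusted p = 0.000344). PI15, a secreted peptidase inhibitor, had effects of 1.45 in the double knockdown, -2.79 with siZFX and 1.94 with siZNF593 and a departure of 2.31 (SE 0.45, adjusted p = 0.00236). Its siZFX libraries were at 0.354, 0.694 and 0.607 CPM, and its siControl mean was 3.83 CPM. ANO3, of the anoctamin family, had 4.43, 3.97 and 6.98 CPM in the double knockdown and 5.64 to 7.38 CPM in the control libraries. Its effects were -0.47 in the double knockdown (adjusted p = 0.0617, edgeR's quasi-likelihood test), -3.77 with siZFX and 0.90 with siZNF593. The siZFX libraries of ANO3 were at 0.354, 0.417 and 0.520 CPM. The minimum of 5 CPM was a mean over the 5 groups, so the departures of PI15 and ANO3 rest on low siZFX counts. For ANO3, PI15 and FREM1 the sign depended on the scale, because on linear CPM, with differences in place of ratios added, the observed level differed from the added level by -0.39, -0.37 and -0.65 log2. Of the 610 genes above the sum whose added linear level was positive, 596 kept their sign on the linear scale.

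AATK, a neuronal kinase, TSPAN15, a tetraspanin partner of the protease ADAM10, and HHIP, an inhibitor of Hedgehog ligands, completed this set with EGR1 and MAG. AATK departed by 2.25 (SE 0.42, adjusted p = 0.00323), TSPAN15 by 2.24 (SE 0.46, adjusted p = 0.00377) and HHIP by 2.09 (SE 0.33, adjusted p = 0.000278). HHIP turned to -0.49 when siControl_2 served as the control of all 3 effects. EGR1, an immediate early transcription factor, had 104, 92.3 and 56.2 CPM in the double knockdown, 59.9, 115 and 79.2 in siZFX, 84.4, 70.3 and 99.5 in siZNF593, 108, 94.1 and 111 in siControl_2, and 221, 218 and 224 in siControl. The 3 siControl libraries lay above all others without overlap. Its departure was 2.45 (SE 0.49, adjusted p = 0.0136), and it was 0.29 with siControl_2 as the control of all 3 effects.

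**Figure D2:**
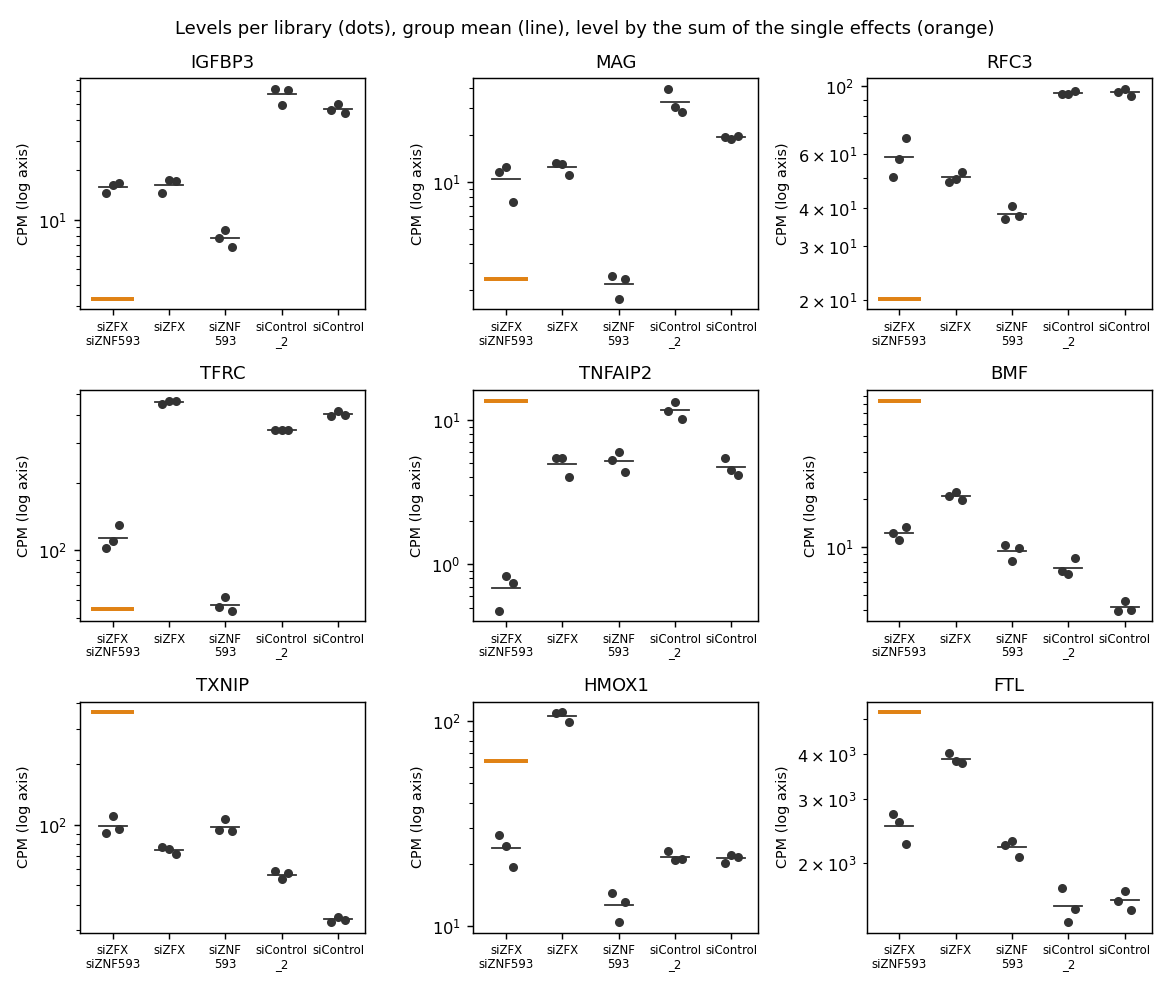
Levels of 9 genes in CPM (log axis) in the 3 libraries of each group (dots), with the group mean (thin line) and the level given by the sum of the single effects (orange, drawn at the double knockdown). IGFBP3, MAG, RFC3 and TFRC lie above the orange line in all 3 double-knockdown libraries, and TNFAIP2, BMF, TXNIP, HMOX1 and FTL below it.

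The list counts from here on stand beside 3.85% above the sum and 1.81% below it among all genes tested. Of the 24 gene lists, the DNA replication list held the most departures in 1 direction. These encode the origin recognition complex, the MCM helicase and its loaders, the clamp and its loader, the polymerases and the nucleotide supply, and their transcription is driven by E2F factors as cells enter S phase. Of 41 genes tested, 21 lay above the sum and none below, with a median departure of 0.68 against -0.01 over all genes tested. At an unadjusted p under 0.05 there were 31 above and 0 below, and DESeq2 called 22 and 0. The siZFX knockdown alone lowered 22 of the 41 and siZNF593 alone 31, where 17.1% and 14.6% of all genes tested were lowered. The double knockdown lowered 21 (20.6% of all genes) and raised 1 (17.6%), the primase gene PRIM1, by 0.88 log2. The median summed effect was -0.89, and the median double-knockdown effect was -0.19. The effect of the double knockdown was higher than that of siZNF593 alone for 16 of the 41 genes and lower for 1, CCNE1, against 7.97% and 8.6% of all genes tested. It was higher than that of siZFX alone for 5 and lower for 2, against 8.76% and 8.97%. With siControl as the control throughout 21 were above as well, with pooled controls 21 were above and 1 below and with siControl_2 for all 3 effects 19 and 1, at medians of 0.46, 0.39 and 0.37, and leaving out 1 library gave 14 to 29.

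The clamp loader subunit RFC3 had 50.4, 57.7 and 67.4 CPM in the double knockdown, 48.7, 49.8 and 52.5 in siZFX, 36.7, 40.4 and 37.5 in siZNF593, 94.3, 94.05 and 96.6 in siControl_2, and 95.4, 97.9 and 92.7 in siControl. Its double-knockdown libraries lay above all siZNF593 libraries, overlapped the siZFX libraries and lay below all controls. The departure was 1.54 (SE 0.17, adjusted p = 3.97e-06), against a level of 20.1 CPM by the sum, and it was 1.54 with siControl. CDC45, a component of the replicative helicase, had 78.4, 72.8 and 71.7 CPM in the double knockdown, 72.3, 72.2 and 67.4 in siZFX, 59.6, 59.99 and 48.6 in siZNF593, 93.4, 92.7 and 88.5 in siControl_2, and 103, 104 and 105 in siControl, with a departure of 1.15 (SE 0.15, adjusted p = 5.55e-05). Its double-knockdown libraries lay above all siZNF593 libraries, overlapped the siZFX libraries and lay below all controls. CHAF1B, a subunit of the chromatin assembly factor that deposits histones behind the fork, had 8.38, 9.99 and 7.999 CPM in the double knockdown, 10.7, 9.21 and 9.67 in siZFX, 8.67, 7.14 and 9.46 in siZNF593, 23.3, 25.2 and 22.5 in siControl_2, and 20.2, 22.3 and 21.9 in siControl. Here all 3 knockdown groups overlapped each other below all controls, and the departure was 1.05 (SE 0.25, adjusted p = 0.0119).

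The 6 subunits of the MCM helicase all lay above the sum. MCM3 departed by 0.93, MCM6 by 0.85, MCM5 by 0.69, MCM4 by 0.68, MCM2 by 0.65 and MCM7 by 0.57, each past the threshold. MCM6 had 172, 179 and 214 CPM in the double knockdown, 207, 220.3 and 203 in siZFX, 123, 147 and 138 in siZNF593, 221, 211 and 217 in siControl_2, and 242, 248 and 239 in siControl, so its double-knockdown libraries exceeded all siZNF593 libraries and overlapped the siZFX libraries. The double effect on MCM6 exceeded the siZNF593 effect by 0.64 (SE 0.11, adjusted p = 0.000345). ORC1 and ORC6 of the origin recognition complex departed by 1.04 and 0.74, the loader CDC6 by 0.74, the sliding clamp PCNA by 0.70 and the thymidylate synthase gene TYMS by 0.85. ORC6 and ORC1 differed in which knockdown lowered them, since ORC6 had effects of -0.11 in the double knockdown, -0.79 with siZFX and -0.06 with siZNF593, and ORC1 of -0.09 in the double knockdown, -0.16 with siZFX and -0.97 with siZNF593. Among the members not called, CCNE1, the cyclin that opens S phase, had a departure of 0.12 (SE 0.39, adjusted p = 0.92) and effects of -1.70 in the double knockdown, -1.33 with siZFX and -0.50 with siZNF593.

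The promoters of this list were searched for TTTNGCGC, the core of the E2F site, on both strands in the window of 250 bases before to 50 after the start. RefSeq promoters (GRCh38.p14) were at hand for 33 of the 41 genes, and 15 held a match (45.5%), against 1.83% of all 27305 promoters. The match did not separate the genes that departed from the others, as 8 of 18 called genes (44.4%) and 7 of 15 not called (46.7%) held one. Among all genes above the sum 26 of 540 promoters (4.81%) held a match, among those below it 2 of 242 (0.826%), and among all genes tested 2.89%. The core that ZFX is known to bind, AGGCCT, stood in 7.59% of promoters above the sum, 13.2% below it and 10.8% of all genes tested, and in 1 of the 33 of this list. A match is a description of letters and not of binding. The 150 bases before the start are shown, 5′ to 3′, for 3 called genes and for POLE2, which was not called (0.69, SE 0.32, adjusted p = 0.25), to show that the match is carried on either side of the threshold; capitals mark the matches on either strand.
MCM6, chr2:135876444-135876593 (- strand): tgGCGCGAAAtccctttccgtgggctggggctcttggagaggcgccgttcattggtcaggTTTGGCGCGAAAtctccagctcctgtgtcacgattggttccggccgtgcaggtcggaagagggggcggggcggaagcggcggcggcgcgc
MCM7, chr7:100101398-100101547 (- strand): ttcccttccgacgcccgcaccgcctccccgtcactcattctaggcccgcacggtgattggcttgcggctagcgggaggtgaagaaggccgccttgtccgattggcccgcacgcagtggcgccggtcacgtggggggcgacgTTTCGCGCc
ORC6, chr16:46689509-46689658 (+ strand): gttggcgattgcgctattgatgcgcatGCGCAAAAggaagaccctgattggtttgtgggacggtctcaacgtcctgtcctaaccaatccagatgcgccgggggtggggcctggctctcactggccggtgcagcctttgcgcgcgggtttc
POLE2, chr14:49688215-49688364 (- strand): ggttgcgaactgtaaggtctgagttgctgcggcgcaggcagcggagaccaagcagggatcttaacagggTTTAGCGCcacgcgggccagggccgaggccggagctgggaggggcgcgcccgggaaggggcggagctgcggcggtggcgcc

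The later phases of the cell cycle shifted less. Of 40 genes of G2/M and mitosis, 3 lay above the sum and none below, against 3.85% and 1.81% of all genes tested. The median departure was 0.31, and at an unadjusted p under 0.05 there were 19 above and 0 below. The 3 were the survivin gene BIRC5 (0.53, SE 0.13, adjusted p = 0.0123), and the mitotic kinesins KIF2C (0.48, SE 0.13, adjusted p = 0.0247) and KIF11 (0.46, SE 0.14, adjusted p = 0.0474). The count was 12 without the third double-knockdown library, 11 without the first, 6 without siZNF593 replicate 2, 1 without siControl replicate 3 and 0 without siControl replicate 2. With siControl for the double knockdown and with pooled controls it was 10, and with siControl_2 for all 3 effects it was 8, with 1 below. The median fell to 0.20 with siControl, 0.16 with pooled controls and 0.09 with siControl_2 for all 3 effects.

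**Figure D3:**
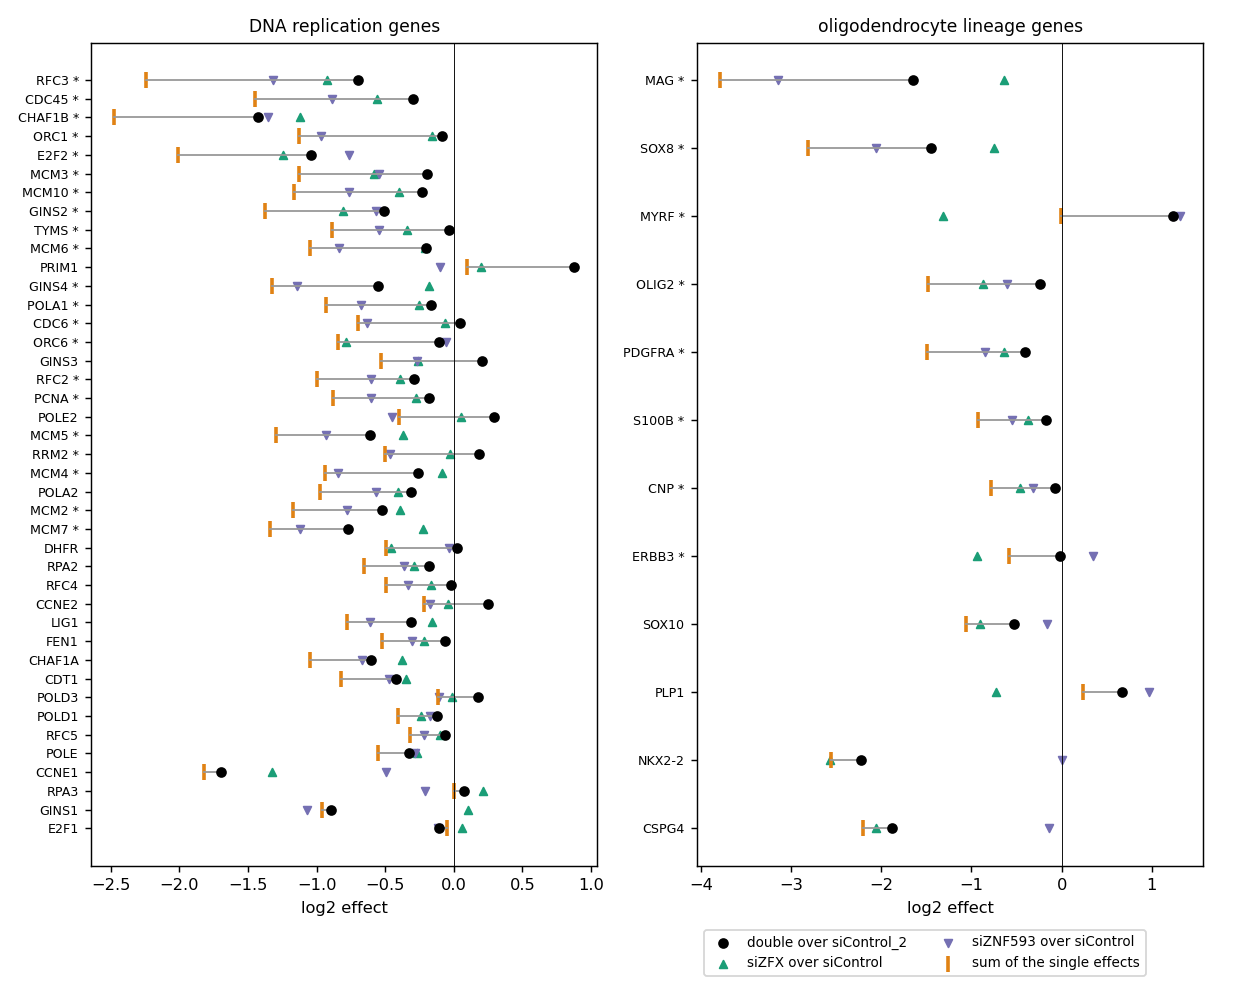
Log2 effects of the double knockdown over siControl_2 (black), siZFX (green) and siZNF593 over siControl (purple) and their sum (orange) for tested members of at least 5 CPM on average of the DNA replication list (left) and the oligodendrocyte lineage list (right). Asterisks mark a departure past the threshold, and the black point lies to the right of the orange bar for 40 of the 41 replication genes.

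Genes of the oligodendrocyte lineage, among them transcription factors and myelin proteins, all had a positive departure. Of 15 tested, 9 were called above the sum and none below, with a median departure of 1.08, and at an unadjusted p under 0.05 there were 13 and 0. siZFX alone lowered 14 of the 15, and siZNF593 alone lowered 7 and raised 3. Of all genes tested siZFX lowered 17.1%, and siZNF593 lowered 14.6% and raised 12.2%. With siControl throughout 14 were above, with pooled controls 13 and with siControl_2 for all 3 effects 14, and leaving out 1 library gave 7 to 12. The ZFX level was itself less reduced in the double knockdown, as given above, and its part in the departures of this or any other list was not tested.

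MAG, a myelin membrane protein, had 11.5, 12.4 and 7.37 CPM in the double knockdown, 13.3, 13.01 and 11.1 in siZFX, 2.45, 1.76 and 2.36 in siZNF593, 39.7, 30.6 and 28.2 in siControl_2, and 19.6, 18.9 and 19.8 in siControl. The double-knockdown libraries overlapped the siZFX libraries, lay above all siZNF593 libraries and below all controls, and the departure was 2.13 (SE 0.34, adjusted p = 0.000355). SOX8, a SoxE transcription factor, had 23.7, 18.6 and 16.9 CPM in the double knockdown, 30.7, 29.6 and 26.6 in siZFX, 13.3, 10.9 and 10.7 in siZNF593, 54.6, 50.3 and 56.2 in siControl_2, and 46.8, 48.1 and 51.4 in siControl, with a departure of 1.37 (SE 0.22, adjusted p = 0.000421). Its double-knockdown libraries lay between the single knockdowns without overlap. OLIG2, the transcription factor that specifies the lineage, had 25.6, 23.9 and 24.5 CPM in the double knockdown, 10.7, 11.99 and 11.5 in siZFX, 16.2, 11.5 and 13.6 in siZNF593, 32.8, 27.8 and 27.05 in siControl_2, and 19.97, 22.9 and 19.96 in siControl. The double-knockdown libraries lay above those of both single knockdowns and of siControl and below siControl_2, and the departure was 1.24 (SE 0.24, adjusted p = 0.00203).

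MYRF, a regulator of myelin genes, departed by 1.24 (SE 0.29, adjusted p = 0.0106) with effects of 1.24 in the double knockdown, -1.32 with siZFX and 1.31 with siZNF593. PDGFRA, the receptor of oligodendrocyte precursors, departed by 1.08 (SE 0.25, adjusted p = 0.0108), and S100B, CNP and ERBB3 by 0.75, 0.71 and 0.56. OLIG1 had the largest value of the list, 4.26 (SE 1.08, adjusted p = 0.0194), but was expressed at 0.998 CPM in the double knockdown and 1.57 CPM in siControl. Among the members not called, CSPG4, a proteoglycan of precursors, had effects of -1.88 in the double knockdown, -2.06 with siZFX and -0.14 with siZNF593 and a departure of 0.32 (SE 0.28, adjusted p = 0.63). NKX2-2, a transcription factor of the lineage, had effects of -2.23 in the double knockdown, -2.57 with siZFX and 0.003 with siZNF593 and a departure of 0.33 (SE 0.70, adjusted p = 0.869), with a 95% interval of -1.15 to 1.82 that is too wide to place it.

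Receptors and ligands of growth factors and the genes of ERK feedback held departures in both directions, and over all genes 680 lay above and 320 below. Of 30 growth factor genes 7 lay above and 1 below, and of 32 immediate early and ERK feedback genes 8 lay above and 3 below, at medians of 0.19 and 0.21. Without the third double-knockdown library the counts above were 12 and 12, and 2 growth factor genes lay below; without siControl replicate 1, 2 or 3 the feedback list had 5 above, and without siControl replicate 1 or 3, or siZFX replicate 2, it had 1 below. With siControl, pooled controls and siControl_2 for all 3 effects, the growth factor list had 10, 11 and 10 above and 6, 7 and 9 below, and the feedback list 12, 12 and 11 above and 3, 6 and 8 below. The median of the feedback list was -0.15 with siControl and -0.05 with pooled controls. AXL, a receptor tyrosine kinase, had 276, 269 and 225 CPM in the double knockdown, 658, 669 and 700.2 in siZFX, 141, 138 and 168 in siZNF593, 595, 592 and 549.7 in siControl_2, and 692, 724 and 699.6 in siControl. The siZNF593 libraries were the lowest and the double-knockdown libraries next, with no overlap between any of the knockdown groups. The departure was 1.13 (SE 0.16, adjusted p = 6.48e-05).

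ETV5, a transcription factor induced by ERK, had 29.9, 29.8 and 30.5 CPM in the double knockdown, 94.3, 91.8 and 90.9 in siZFX, 15.2, 16.1 and 17.5 in siZNF593, 119, 119.8 and 121 in siControl_2, and 104, 105 and 104 in siControl. It fell with siZNF593 and, less deeply, in the double knockdown, with a departure of 0.86 (SE 0.14, adjusted p = 0.000344). The feedback inhibitors SPRY4, SPRY2 and SPRED2 and the phosphatase DUSP6 departed by 0.78, 0.62, 0.44 and 0.53, and the ligand HBEGF and the factor EGR3 by 1.22 and 1.30. SPRY1, ATF3 and JUNB lay below the sum, by -1.72, -1.37 and -1.11. SMO, the transducer of Hedgehog signals, had 14.9, 16.2 and 11.02 CPM in the double knockdown, 4.83, 6.62 and 5.59 in siZFX, 27.3, 28.03 and 27.9 in siZNF593, 59.5, 52.9 and 56.6 in siControl_2, and 35.3, 38.1 and 36.2 in siControl, and its departure was 1.08 (SE 0.24, adjusted p = 0.00699). The double-knockdown libraries of SMO lay above the siZFX libraries and below all others. On linear CPM the SMO level differed from the added level by -0.25 log2. LEF1, a Wnt effector, departed by 0.72, and with HHIP these were the 3 of 26 Hedgehog, Notch and Wnt genes called above, with none below (2 below at an unadjusted p under 0.05). With siControl 4 of these 26 lay above and 4 below, and 6 and 6 under both other control choices.

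Among the strongest departures downward, 12 genes chosen by the same conditions out of 213, several were raised by each knockdown alone and not further by both. BMF (chr15:40087890-40108892), a BH3-only protein that opposes BCL2, had 12.3, 11.1 and 13.3 CPM in the double knockdown, 21.1, 22.4 and 19.9 in siZFX, 10.4, 8.17 and 9.86 in siZNF593, 7.05, 6.72 and 8.49 in siControl_2, and 3.98, 4.57 and 4.01 in siControl. Every double-knockdown library lay above both control sets and below every siZFX library. The sum predicted 84.4 CPM, against 12.2 ± 1.103 CPM observed, a departure of -2.78 (SE 0.29, adjusted p = 2.71e-06). TXNIP (chr1:145992435-145996600), an arrestin that binds thioredoxin and limits glucose uptake, had 90.5, 110.2 and 95.6 CPM in the double knockdown, 77.1, 75.5 and 71.6 in siZFX, 94.3, 106 and 92.6 in siZNF593, 58.6, 53.6 and 57.1 in siControl_2, and 32.7, 34.9 and 33.5 in siControl. All 3 knockdown groups lay above all controls, and the double-knockdown libraries overlapped the siZNF593 libraries. Its departure was -1.88 (SE 0.17, adjusted p = 5.39e-07) with siControl_2 and -1.13 with siControl for the double knockdown.

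COL1A1, a chain of type I collagen, had 8.66, 5.53 and 4.04 CPM in the double knockdown, 19.1, 18.6 and 18.3 in siZFX, 16.5, 19.7 and 19.03 in siZNF593, 13.3, 12.5 and 12.1 in siControl_2, and 9.93, 9.25 and 13.6 in siControl. Both single knockdowns lay above all controls, whereas the double-knockdown libraries lay below them without overlap. The departure was -2.59 (SE 0.39, adjusted p = 0.00024), and it was -2.38, -2.27 and -2.16 under the other control choices. DLX2, a homeobox transcription factor of the forebrain, had 7.62, 8.21 and 4.78 CPM in the double knockdown, 32.3, 33.5 and 31.9 in siZFX, 16.8, 18.2 and 14.9 in siZNF593, 11.9, 13.9 and 13.8 in siControl_2, and 14.1, 15.7 and 16.2 in siControl, with a departure of -2.15 (SE 0.29, adjusted p = 5.96e-05). Its siZFX libraries were the highest of the 15 and its double-knockdown libraries the lowest.

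IRAK2, a kinase of interleukin 1 and Toll-like receptor signalling, departed by -1.91 (SE 0.25, adjusted p = 3.68e-05) with effects of -0.71 in the double knockdown, 1.24 with siZFX and -0.04 with siZNF593. GABRE, a GABA-A receptor subunit, departed by -1.81 (SE 0.37, adjusted p = 0.00372), and ITGA11, a collagen-binding integrin, by -2.62 (SE 0.40, adjusted p = 0.000219). BTG2, an antiproliferative p53 target, departed by -1.81 (SE 0.34, adjusted p = 0.00142). LBH, STON1 and BGN departed by -2.19, -2.19 and -2.24, but by 0.30, 0.25 and 0.21 with siControl_2 as the control of all 3 effects. STON1 shares 29.1% of its exonic bases with another gene, so its unstranded counts are uncertain, and 7 of these 24 genes share at least some exonic bases.

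TNFAIP2 (chr14:103123442-103137439), a gene induced by tumour necrosis factor, showed the largest negative departure of the set. It had 0.479, 0.833 and 0.745 CPM in the double knockdown, 5.49, 5.42 and 4.03 in siZFX, 5.31, 5.95 and 4.33 in siZNF593, 11.4, 13.3 and 10.2 in siControl_2, and 5.44, 4.47 and 4.18 in siControl. The single knockdowns overlapped siControl, and all double-knockdown libraries were below 1 CPM. The departure was -4.30 (SE 0.43, adjusted p = 1.51e-06) with siControl_2, and -2.99 with siControl, because siControl_2 lay 1.31 log2 above siControl.

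TNFAIP2 belonged to a list of NF-kB chemokines and inflammatory genes, which encode secreted attractants, adhesion molecules and the feedback inhibitors of the NF-kB pathway. Of 23 tested, 9 lay below the sum and none above, against 1.81% and 3.85% of all genes tested. The median was -0.98, with 13 below and 3 above at an unadjusted p under 0.05 and 10 and 1 by DESeq2. The double knockdown lowered 19 of the 23 against siControl_2, whereas siZFX lowered 5 and raised 3 and siZNF593 lowered 7. Of all genes tested the double knockdown lowered 20.6%, siZFX lowered 17.1% and raised 13.8%, and siZNF593 lowered 14.6%. The control libraries differed for these genes: 15 of 23 were higher in siControl_2 than in siControl. With siControl for the double knockdown 4 were below and 5 above, with pooled controls 3 were below and 8 above, and with siControl_2 throughout 2 were below and 12 above. Without siControl replicate 1 or 2, 5 were below, without siControl replicate 3, 6 were below, and without the third double-knockdown library 11 were below and 2 above. The direction of the list thus depended on which control set was used.

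NFKBIA, the inhibitor that holds NF-kB in the cytoplasm, had a negative departure under each control choice. It had 24.2, 28.6 and 19.5 CPM in the double knockdown, 45.7, 45.4 and 42.5 in siZFX, 36.5, 39.7 and 30.3 in siZNF593, 58.4, 52.8 and 54.9 in siControl_2, and 33.9, 41.8 and 35.4 in siControl. The double-knockdown libraries were below all others, and the departure was -1.40 (SE 0.24, adjusted p = 0.000731), -0.82 with siControl and -0.25 with siControl_2 throughout. In the contrast described, the feedback inhibitor TNFAIP3 departed by -1.47, the ubiquitin ligase BIRC3 by -1.52, SOD2 by -1.30 and the NF-kB subunit NFKB2 by -0.86. With siControl_2 throughout, 2 of the 23 listed genes were called below the sum, TNFAIP2 among them. The adhesion molecule ICAM1 departed by -1.78 (SE 0.28, adjusted p = 0.000364), but by 0.25 with pooled controls, and complement C3 by -3.33 but 1.38.

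The chemokine CXCL1 had the most negative double-knockdown effect of the 23 genes and lay at the sum. It had 3.55, 5.03 and 1.84 CPM in the double knockdown, 13.1, 12.2 and 12.7 in siZFX, 4.61, 4.09 and 2.999 in siZNF593, 139.9, 131 and 153 in siControl_2, and 41.97, 46.9 and 41.8 in siControl. Each knockdown group lay below all controls, and the double-knockdown libraries overlapped siZNF593. Its effects were -5.34 in the double knockdown, -1.78 with siZFX and -3.47 with siZNF593, and its departure was -0.08 (SE 0.40, adjusted p = 0.953) with a 95% interval of -0.94 to 0.77. With siControl for the double knockdown it was 1.61 (adjusted p = 0.00258). CXCL8 had effects of -4.41 in the double knockdown, -1.36 with siZFX and -2.07 with siZNF593 and a departure of -0.98 (SE 0.30, adjusted p = 0.0654), which missed the threshold. CCL2 departed by -0.52 (SE 0.23, adjusted p = 0.237). CXCL1, CXCL8 and CCL2 were chosen after their values were seen.

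For this list the NF-kB site GGAATTTCC was searched on both strands of the same window, and 7 of 17 promoters held it (41.2%), against 0.472% of all promoters. It stood in 2 of 8 called genes (25%) and in 5 of 9 not called (55.6%). The 200 bases before the start are shown for both called genes with a match, and for the chemokines CXCL1 and CXCL8, which were not called; capitals mark the match.
ICAM1, chr19:10270920-10271119 (+ strand): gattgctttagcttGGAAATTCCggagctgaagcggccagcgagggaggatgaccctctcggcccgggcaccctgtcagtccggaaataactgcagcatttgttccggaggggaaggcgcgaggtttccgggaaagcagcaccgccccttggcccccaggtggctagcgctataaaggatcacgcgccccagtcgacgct
NFKBIA, chr14:35404750-35404949 (- strand): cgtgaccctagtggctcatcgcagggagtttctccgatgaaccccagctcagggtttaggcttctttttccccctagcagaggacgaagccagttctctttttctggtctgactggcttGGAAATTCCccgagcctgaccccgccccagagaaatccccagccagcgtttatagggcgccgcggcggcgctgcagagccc
CXCL1, chr4:73869193-73869392 (+ strand): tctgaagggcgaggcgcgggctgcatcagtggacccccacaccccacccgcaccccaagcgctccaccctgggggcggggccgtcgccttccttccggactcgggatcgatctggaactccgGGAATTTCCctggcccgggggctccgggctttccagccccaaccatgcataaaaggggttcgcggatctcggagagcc
CXCL8, chr4:73740369-73740568 (+ strand): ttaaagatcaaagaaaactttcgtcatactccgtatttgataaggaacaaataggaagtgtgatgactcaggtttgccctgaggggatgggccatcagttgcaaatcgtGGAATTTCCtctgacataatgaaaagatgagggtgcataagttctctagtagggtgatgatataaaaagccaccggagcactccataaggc

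Among 37 extracellular matrix and proteoglycan genes 10 lay below the sum and 3 above, at a median of -0.21. The 10 below were COL1A1 and BGN as given, COL3A1 by -2.95, POSTN by -1.64, COL5A2 by -1.06, COL6A1 by -0.94, FBN1 by -0.82 and COL6A2 by -0.71, together with the protease MMP2 (-0.68) and the crosslinking enzyme LOXL2 (-0.62). The laminin chains LAMA4 and LAMB1 and the protease inhibitor TIMP3 lay above, by 0.61, 0.52 and 1.28. With siControl for the double knockdown 10 lay above and 10 below, with pooled controls 13 and 10 and with siControl_2 for all 3 effects 16 and 10, where the median turned to 0.14 and 0.22 under the last 2 choices. Without the first double-knockdown library 5 lay above. COL3A1, at 1.03 CPM in the double knockdown, turned to 0.84 with pooled controls. The fibroblast marker list, which holds COL1A1, summed to 169 to 217 CPM in the double knockdown, 123 to 133 CPM with siZFX, 120 to 143 CPM with siZNF593, 133 to 149 CPM in siControl_2 and 75.8 to 87.9 CPM in siControl, and its part in these departures was not tested.

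Of 24 genes of iron handling and oxidative stress, 2 lay above the sum and 2 below, at a median of 0.04. The balance depended on the control set, with 1 above and 5 below with siControl, 1 and 10 with pooled controls and 1 and 13 with siControl_2 for all 3 effects, at medians of -0.23, -0.44 and -0.61. TFRC, the transferrin receptor that takes up iron, had 102, 109 and 129.8 CPM in the double knockdown, 452, 462 and 466 in siZFX, 55.7, 61.6 and 53.8 in siZNF593, 345, 346 and 345 in siControl_2, and 398, 419 and 403 in siControl. The siZFX libraries lay above all controls, the siZNF593 libraries were the lowest, and the double-knockdown libraries lay between them and the controls. The departure was 1.06 (SE 0.15, adjusted p = 8.81e-05), and the double effect exceeded the siZNF593 effect by 1.23 (SE 0.11, adjusted p = 1.09e-07). HMOX1, the enzyme that breaks down heme, had 27.8, 24.7 and 19.5 CPM in the double knockdown, 109, 111 and 98.7 in siZFX, 14.5, 10.4 and 13.1 in siZNF593, 23.2, 21.1 and 21.2 in siControl_2, and 20.3, 22.3 and 21.6 in siControl. The siZFX libraries were the highest and the siZNF593 libraries the lowest. In the double knockdown it overlapped the controls, a departure of -1.42 (SE 0.24, adjusted p = 0.00065). FTL, the ferritin light chain that stores iron, had 2735, 2599 and 2257 CPM in the double knockdown, 4010.1, 3826 and 3764 in siZFX, 2238, 2301 and 2080.2 in siZNF593, 1704, 1372 and 1490.3 in siControl_2, and 1574, 1672 and 1487 in siControl. The double-knockdown libraries overlapped siZNF593 and lay below all siZFX libraries, with a departure of -1.04 (SE 0.16, adjusted p = 0.000198).

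HMOX1, FTL and TFRC kept their sign and call under each of the control choices, while SLC7A11, the cystine transporter and the fourth called member (0.67), turned to -0.09 with siControl and -0.86 with siControl_2 for all 3 effects. By contrast NQO1 and TKT, chosen after their values were seen, were moved in opposite directions by the single knockdowns and lay at the sum. NQO1, a quinone reductase under NRF2 control, had 633, 672 and 647 CPM in the double knockdown, 2289.9, 2264 and 2249 in siZFX, 381, 406 and 384 in siZNF593, 1291, 1151 and 1182 in siControl_2, and 1307, 1449 and 1269 in siControl. Its effects were -0.89 in the double knockdown, 0.76 with siZFX and -1.78 with siZNF593, and the departure of 0.13 had a 95% interval of -0.13 to 0.39. TKT, the transketolase of the pentose phosphate pathway, had effects of -0.83 in the double knockdown, 0.53 with siZFX and -1.52 with siZNF593 and a departure of 0.16 with an interval of -0.11 to 0.43. For these genes the intervals leave room for departures of at most 0.43 log2 upward and 0.13 downward.

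PGM2L1, which makes hexose bisphosphates, was the called gene of the hypoxia and glycolysis list below the sum, and it had 77.1, 81.97 and 103 CPM in the double knockdown, 113, 114 and 112 in siZFX, 59.5, 63.97 and 67.4 in siZNF593, 19.3, 18.2 and 19.7 in siControl_2, and 21.4, 23.4 and 24.6 in siControl. All 3 knockdown groups lay above all controls, the double-knockdown libraries lay between the single knockdowns, and the departure was -1.55 (SE 0.20, adjusted p = 2.48e-05). ADM and PFKFB3 of the same list lay above, by 0.84 and 0.52, and the other 30 of 33 were not called. With siControl 3 of the 33 lay above and 6 below, and with pooled controls and with siControl_2 for all 3 effects 4 and 9; without any 1 siControl library, siZFX replicate 2 or siControl_2 replicate 3, 1 lay above. In the BCL2 family, BMF lay below and the survival genes BCL2 (1.19, SE 0.23, adjusted p = 0.0024) and BCL2A1 (1.09, SE 0.30, adjusted p = 0.0298) above, out of 16. The 2 above became 5 without the third double-knockdown library, 4 without the first or without siZNF593 replicate 2, 3 without siZNF593 replicate 1 or 3 or siControl_2 replicate 1, and 1 without siControl replicate 1 or 2 or siZFX replicate 1 or 3. With siControl 4 lay above and 1 below, and 5 and 5 under both other control choices. Among 33 interferon-induced genes IFIT2 lay above (1.75, SE 0.30, adjusted p = 0.000613) and IFI6 and IRF1 below (-1.74 and -1.12), and IFI6 turned to 0.60 with pooled controls. The balance of the interferon list turned with the control set, with 3 above and 1 below with siControl, 9 and 2 with pooled controls and 14 and 2 with siControl_2 for all 3 effects, and its median was -0.15 in the contrast described and 0.25, 0.45 and 0.49 under these.

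The lists on protein synthesis shifted by small amounts. Of 74 cytosolic ribosomal protein genes 5 lay below the sum and none above, with a median of -0.30 and 65 of 74 departures negative, and at an unadjusted p under 0.05 there were 22 below and 0 above. RPL13 had 1174, 1170.1 and 936 CPM in the double knockdown, 1490.2, 1473 and 1399 in siZFX, 1579, 1487 and 1387 in siZNF593, 1517, 1247 and 1301 in siControl_2, and 1245, 1343 and 1169.9 in siControl, so all 3 double-knockdown libraries were below those of both single knockdowns, and its departure was -0.77 (SE 0.17, adjusted p = 0.00843). RPL13A, RPS9, RPS18 and RPLP1 departed by -0.67, -0.61, -0.60 and -0.52. The count was 18 without the third double-knockdown library, 1 without siControl replicate 3, and 2 without any of siControl replicate 1, siZFX replicate 1 or 2, siZNF593 replicate 1 or siControl_2 replicate 1. It was 29 with siControl for the double knockdown, 31 with pooled controls and 27 with siControl_2 for all 3 effects. Many ribosomal protein genes have near-identical processed pseudogenes, and reads shared with them were not counted.

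Of 40 genes of ribosome biogenesis and RNA polymerase I, the process in which the yeast counterpart of ZNF593 works, 4 lay above and none below, at a median of 0.14, with 9 above and 2 below at an unadjusted p under 0.05. RRN3, the initiation factor of RNA polymerase I, departed by 0.62 (SE 0.16, adjusted p = 0.0189), the large subunit assembly factors GTPBP4 and MRTO4 by 0.50 and 0.50, and the small nucleolar ribonucleoprotein NOP58 by 0.47. The direction of the list turned with the control set: 2 lay above and 3 below with siControl, 2 and 8 with pooled controls and 2 and 14 with siControl_2 for all 3 effects, at medians of -0.08, -0.16 and -0.25. MRTO4 and GTPBP4 turned to -0.20 and -0.09 with siControl_2 throughout. The count above was 7 without the third double-knockdown library, with 1 below, 2 without siControl replicate 3 or siZFX replicate 1 or 3, 1 without siControl replicate 1 and 0 without siControl replicate 2.

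Mitochondrially encoded mRNAs had a median departure of -0.70, and 3 of 13 were called below the sum, MT-ND6 (-1.16), MT-CO2 (-0.999) and MT-CO1 (-0.92), with 8 below and 0 above at an unadjusted p under 0.05. The share of counts on mitochondrial genes moved with them: it was 4.74%, 4.54% and 3.57% in the double knockdown, 4.45% to 4.60% with siZFX, 3.51% to 4.40% with siZNF593, 4.32% to 5.01% in siControl_2 and 3.19% to 3.60% in siControl. The siControl range lay below those of siZFX and siControl_2 and overlapped those of the double knockdown and siZNF593, and the part of this share in the result was not tested. The count was 6 without the third double-knockdown library, 5 without siZNF593 replicate 1, 2 without each of 10 other libraries and 1 with siControl for the double knockdown. The median was -0.33 with siControl, -0.16 with pooled controls and 0.03 with siControl_2 for all 3 effects, where 7 of the 13 departures were positive. The 40 nuclear genes of oxidative phosphorylation had no call in edgeR's quasi-likelihood test, with 1 above and 2 below at an unadjusted p under 0.05 and 1 above by DESeq2, at a median of -0.02. Without the third double-knockdown library 1 lay above.

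Chaperones lowered by each knockdown alone were among the genes above the sum. HSP90AA1, the inducible cytosolic HSP90, had 984, 1050.1 and 1151 CPM in the double knockdown, 991, 959 and 1016 in siZFX, 1057, 1299.8 and 1195 in siZNF593, 1558, 1491 and 1580.3 in siControl_2, and 1743, 1902 and 1762 in siControl. All 3 knockdown groups lay below all controls, the double-knockdown libraries overlapped those of the single knockdowns, and the departure was 0.93 (SE 0.14, adjusted p = 0.000227). STIP1, a co-chaperone that links HSP70 to HSP90, departed by 0.65 and HSPA8, the constitutive HSP70, by 0.62, and 3 of 20 heat shock genes were called in all, 6 above and 1 below without the third double-knockdown library, and 5 without the first or without siZNF593 replicate 2. Under each of the other control choices 3 lay above and 2 below. In the endoplasmic reticulum 5 of 29 ATF4 and unfolded protein response genes lay above, among them MANF, CRELD2, HSP90B1 and HSPA5 (0.75, 0.71, 0.55 and 0.48). The 3 below were DNAJB9 (-1.34, SE 0.24, adjusted p = 0.000986), SESN2 (-1.19, SE 0.21, adjusted p = 0.000933) and SLC3A2 (-0.54). Without the third double-knockdown library 8 lay above and 5 below, and without siControl replicate 2, 2 lay above. With siControl 8 lay above and 7 below, with pooled controls 9 and 10 and with siControl_2 for all 3 effects 9 and 9.

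Lists of transcription and chromatin factors held few departures in the contrast described. Among all genes tested 3.85% lay above the sum and 1.81% below it, 5.65% in all. None of 27 genes of polymerase II pausing and elongation was called by edgeR's quasi-likelihood test or DESeq2, with 2 above and 1 below at an unadjusted p under 0.05. Of 45 histone H4 and H3 acetyltransferase genes ING4 lay below (-0.87, SE 0.24, adjusted p = 0.0288). It was not called without siControl replicate 1 or 3, siZFX replicate 1 or 2, siZNF593 replicate 1, or siControl_2 replicate 1 or 3. Of 35 histone deacetylase complex genes CHD3 (-0.81) and HDAC9 (-0.75) lay below. Of 13 RNA interference genes AGO2, the slicer, lay above (0.63, SE 0.17, adjusted p = 0.0272). It had effects of -0.61 in the double knockdown, -0.82 with siZFX and -0.42 with siZNF593, and it was not called without siControl replicate 1 or 3 or siZFX replicate 1. Of 20 p53 targets BTG2 alone lay below. Without the third double-knockdown library 3 acetyltransferase, 2 deacetylase and 2 p53 target genes lay above, 2 p53 targets below, and 2 RNA interference genes above and 1 below, and no deacetylase gene was called below without siControl replicate 2. With siControl_2 for all 3 effects 1 pausing gene lay above and 7 below, 5 acetyltransferase genes above and 7 below, 7 deacetylase genes above and 2 below, and 2 p53 targets above and 5 below. Over the 24 lists, 724 distinct genes were tested and 117 called.

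**Figure D4:**
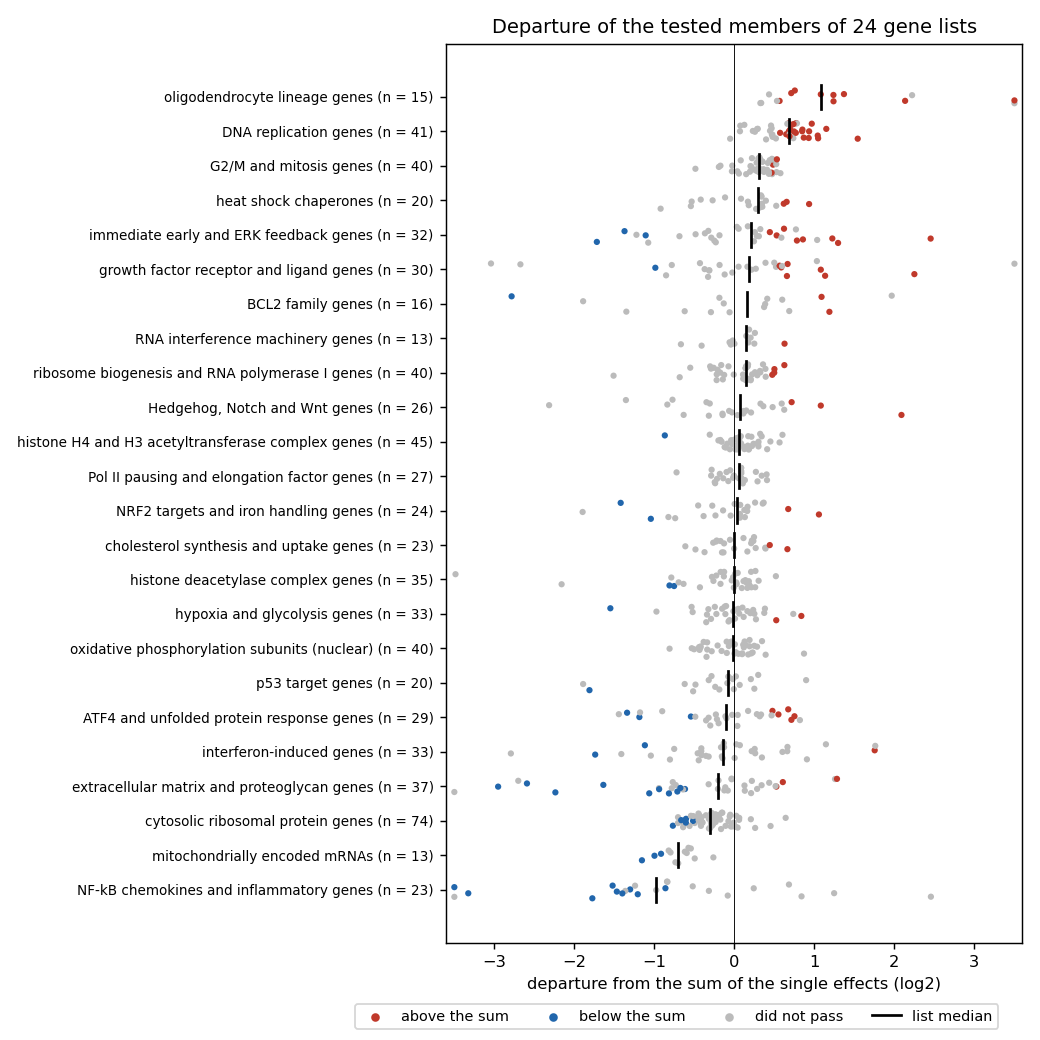
Departure (log2) of each tested member of the 24 lists, with members above the sum in red, below it in blue and others in grey, and the list median as a black bar. The oligodendrocyte lineage and DNA replication lists lie highest, at medians of 1.08 and 0.68, and the NF-kB list lowest, at -0.98, which turned to 0.92 with siControl_2 for all 3 effects; 6 points beyond 3.5 are drawn at the edge.

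The sign of some departures turned with the control set. Of the 680 genes above the sum 18, and of the 320 below 11, had the opposite sign with siControl as the control of the double knockdown. With pooled controls 46 and 44 had it, and with siControl_2 for all 3 effects 90 and 79, of which 41 and 35 were called in that opposite direction. TRHDE, a peptidase that degrades thyrotropin-releasing hormone, had 4.63, 4.43 and 5.92 CPM in the double knockdown, 9.78, 9.49 and 10.8 in siZFX, 8.82, 8.12 and 8.13 in siZNF593, 1.84, 1.96 and 1.28 in siControl_2, and 14.8, 13.03 and 11.3 in siControl. Its siControl_2 libraries were the lowest of the 15, its double-knockdown libraries came next, and siControl was the highest. The departure was 2.57 (SE 0.33, adjusted p = 3.23e-05) with siControl_2 and -0.36 with siControl. ADGRL2, an adhesion receptor, had 9.57, 10.7 and 14.2 CPM in the double knockdown, 41.3, 41.7 and 40.7 in siZFX, 27.6, 29.6 and 35.6 in siZNF593, 4.703, 4.97 and 6.24 in siControl_2, and 37.3, 38.5 and 36.9 in siControl. The double-knockdown and siControl_2 libraries both lay below all others, and the departure was 1.27 (SE 0.26, adjusted p = 0.00321) with siControl_2 but -1.56 with siControl.

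OLFML2A, a secreted matrix protein, had 52.4, 51.7 and 37.9 CPM in the double knockdown, 18.7, 20.7 and 19.5 in siZFX, 38.8, 38.3 and 43.03 in siZNF593, 71.1, 72.2 and 76.8 in siControl_2, and 23.2, 21.1 and 18.9 in siControl. Here siControl_2 was the highest group, and the departure was -1.45 (SE 0.22, adjusted p = 0.000246) with siControl_2 and 0.35 with siControl. ADRA1B and TNFRSF11A, which lay above the sum, and SLC29A4, PTGS2 and DEPP1, which lay below it, behaved likewise with siControl values of -0.10, -0.08, 0.10, 0.31 and 0.32. For these genes the response to the knockdowns and the difference between the control sets cannot be told apart.

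**Figure D5:**
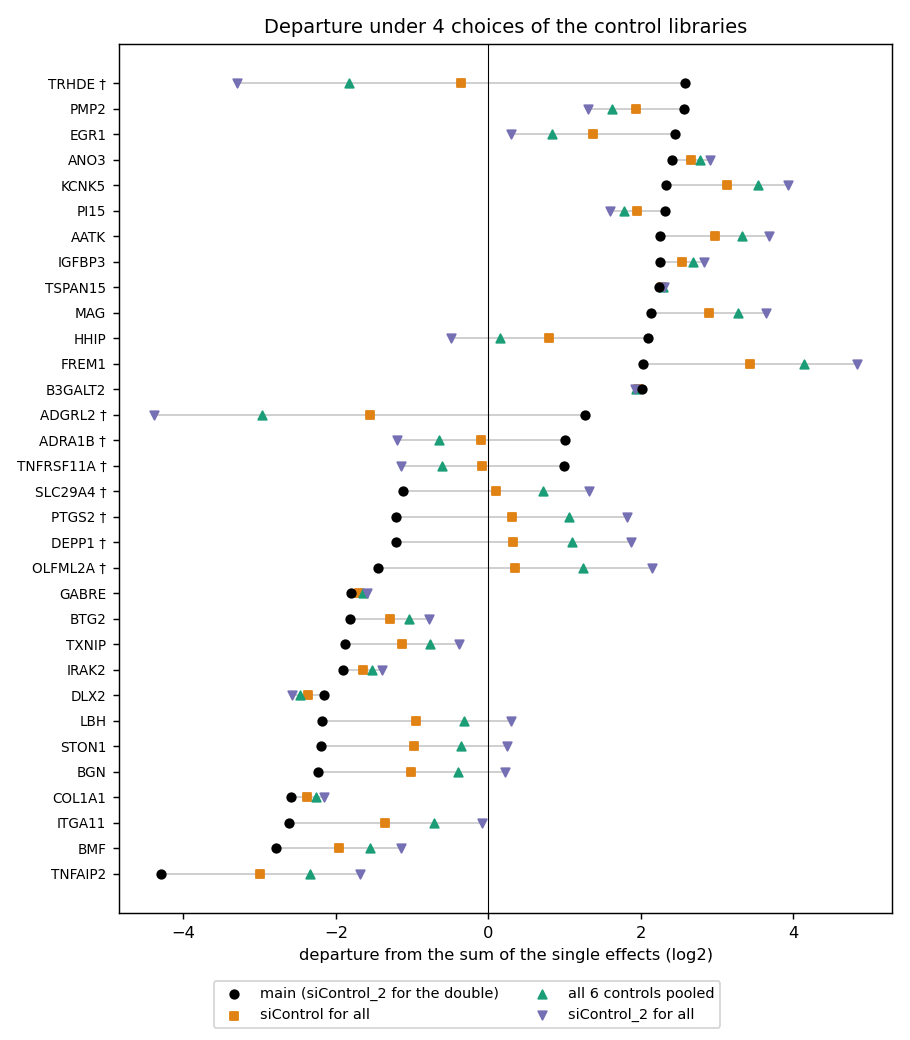
Departure (log2) of the 24 genes of largest departure and of 8 genes (daggers) whose sign turned with siControl, under 4 choices of the control libraries. IGFBP3, MAG, COL1A1, BMF and TNFAIP2 stay on 1 side of 0 under each choice, and TRHDE and ADGRL2 run between 2.57 and -3.30 and between 1.27 and -4.38.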

How the data were processed

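RNA sequencing libraries of LN-229 cells were prepared with a NEBNext Ultra II kit, per the labels' protocols. Per the submitters' processing notes, the tools were STAR, HTSeq and DESeq2 and the build GRCh38 (hg38), without versions. Each deposited file gives raw read counts per gene in 3 columns (unstranded and each strand), which the authors made from uniquely mapped reads, per the file layout. The unstranded column was used here, and all 58721 gene identifiers matched GENCODE 29. No gene names were attached to 4 summary rows (unmapped, multimapping, no feature and ambiguous), which were left out of library sizes: 9.64% to 11.1% of reads were ambiguous and 2.11% to 3.29% multimapping. Reads on overlapping genes and antisense partners cannot be told apart without strand.

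Counts were filtered with filterByExpr, scaled by TMM and fitted with edgeR 4.0.16 (R 4.3.3; glmQLFit robust, glmQLFTest) over all 15 libraries, with Benjamini-Hochberg adjustment over 17684 genes and a threshold of 0.05. CPM values are counts per 1000000 of the TMM-scaled library size. The procedure was tested on simulated data in which 200 genes were changed. Those counts were drawn from the model fitted here, so the test cannot show whether that model describes these libraries. Intervals are 95% intervals of the same fit. The level given by the sum is the siControl_2 mean multiplied by the fold changes of both single knockdowns.

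Genes named were protein coding with at least 5 CPM: the 12 largest departures each way that passed the conditions given in the text, 4 each way whose sign turned with siControl, up to 3 called members of each of 24 lists at any level, and ZFX, ZNF593 and ZNF711, which did not pass the filter. The members of 1 list are not reported here. Other members of lists are given by value, and genes chosen otherwise are said to be. The comparison, the lists and their members were chosen with earlier results of these data known. DESeq2 1.42.0, other controls, scalings, filters, strands, a replicate block, the linear scale and leaving out each library were tried as alternatives. Promoters are from RefSeq. Figures were drawn with matplotlib 3.10.9.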

Additional observations from a re-analysis of the deposited data

Results flagged for a closer look

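The effect of the siRNA against ZFX on its own target differed between the double and the single knockdown. The log2 effect of siZFX siZNF593 over siControl_2 lay above that of siZFX over siControl by 0.65 (SE 0.17, adjusted p = 0.0112, edgeR's quasi-likelihood test of the difference itself). All 3 double-knockdown libraries, at 24.1, 28.6 and 27.2 CPM, were above the 3 siZFX libraries, at 12.7, 15.7 and 19.7 CPM. How far the departures of other genes follow this difference was not tested.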

How the results depend on the processing

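The choice of the control libraries changed the results most. Genes above the sum numbered 1607 with siControl for the double knockdown, 2122 with all controls pooled and 2424 with siControl_2 for all 3 effects, and genes below it 1056, 1682 and 2029. Under these choices, in that order, the departure was -0.36, -1.83 and -3.30 for TRHDE, -1.56, -2.97 and -4.38 for ADGRL2, -0.10, -0.65 and -1.20 for ADRA1B, -0.079, -0.61 and -1.15 for TNFRSF11A, 0.10, 0.72 and 1.33 for SLC29A4, 0.31, 1.06 and 1.82 for PTGS2, 0.32, 1.09 and 1.86 for DEPP1, and 0.35, 1.24 and 2.14 for OLFML2A, each the reverse of its main sign. With pooled controls and with siControl_2 for all, it reversed to 0.84 and 2.10 for COL3A1, 0.60 and 1.38 for IFI6, 0.25 and 0.93 for ICAM1, 1.38 and 2.95 for C3, and -0.027 and -0.20 for MRTO4. With siControl_2 for all alone it reversed to -0.49 for HHIP, 0.30 for LBH, 0.25 for STON1, 0.21 for BGN, 0.55 for SPRY1, 0.29 for MT-CO1, 0.20 for MT-CO2 and -0.094 for GTPBP4. On linear CPM it reversed to -0.39 for ANO3, -0.37 for PI15, -0.65 for FREM1 and -0.25 for SMO. The cause was not tested.

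Leaving out 1 library gave 405 to 1334 genes above and 146 to 713 below. It gave 5659 to 6987 called in the double knockdown, 4377 to 7115 with siZFX and 3564 to 6546 with siZNF593. Between the control sets it gave 1204 without siControl replicate 3 and 3503 without the third double-knockdown library. No named gene reversed, but calls were lost. Of 82 named genes, 22 missed the threshold without siControl replicate 2, 18 without siControl replicate 1 and 17 without siControl replicate 3. SLC29A4 missed it in 12 of the 15 fits that left out 1 library, MT-CO2 in 11, KIF11 in 10 and DEPP1 and MRTO4 in 9 each. Other scalings, filters, strand columns and DESeq2 gave 655 to 872 above and 312 to 462 below. DESeq2 left 3772 adjusted p-values missing. A replicate block gave 667 above and 319 below, and 5 of 82 named genes then missed the threshold. No strong shift was shared by same-numbered libraries: 0 of 30 same-numbered pairs had a correlation of deviations over 0.1, and 5 of 15 libraries were closest to their own number. Whether same-numbered libraries were prepared together cannot be told from these correlations. Depth limits low genes such as OLIG1, whose 95% interval was 2.02 to 6.496.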
